A study of Drosophila mauritiana and Drosophila melanogaster and Drosophila simulans with 12 samples.

Results

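The Pax genes that specify the *Drosophila* eye are *eyeless* (*ey*, FBgn0005558), *twin of eyeless* (*toy*, FBgn0019650), *eye gone* (*eyg*, FBgn0000625) and *twin of eyegone* (*toe*, FBgn0036285). These 4 genes were taken by their FlyBase identifiers from the 13311 genes that the count tables of the reciprocal re-annotation list for all 3 species, and every one of them was listed in both tables. Pax proteins are transcription factors that bind DNA through a paired domain, and most members of the Pax6 class also carry a homeodomain. *ey* and *toy* are the fly orthologues of Pax6. In *D. melanogaster*, *toy* acts upstream of *ey*, both activate the retinal determination genes, and forced expression of either can induce ectopic eyes. *eyg* and *toe* belong to another Pax class, with a truncated paired domain, and *eyg* promotes growth of the eye disc downstream of Notch.

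The data were counts of RNA-seq reads per gene model in eye-antennal imaginal discs, the larval tissue that gives rise to the eye, the antenna and most of the adult head. *D. melanogaster* OreR (OregonR) and *D. simulans* YVF (the *yellow vermillion forked* stock) were each set against *D. mauritiana* TAM16, a strain collected in Mauritius. All larvae were females of the late L3 stage, kept at 25 °C with 30 larvae to a vial and 120 h old counted from egg laying, and a sample pooled 40 to 50 discs, of which 500 ng of total RNA entered a library. Single-end reads of 50 bp were made for *D. melanogaster* libraries A, B and C and for *D. mauritiana* libraries A, B and C, and paired-end reads of 100 bp for *D. simulans* libraries A, B and C and for *D. mauritiana* libraries D, E and F. Each species was represented by 1 strain, so species and strain cannot be told apart, and each library held pooled discs. Species were compared within a read type only, with 3 libraries against 3. The study's methods call the replicates biological, and the labels do not say whether they came from separate crosses or vials, so p-values measure the spread between these libraries.

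Count sums and the makeup of the libraries differed between the sets. The 100 bp paired-end reads were split into 50 bp reads before mapping, and both ends were counted. A paired-end fragment can thus give several counts, so the sums do not compare numbers of fragments between read types. The reciprocal tables held 17170747 to 27621643 counts per library in *D. melanogaster* and 17622291 to 34063962 in single-end *D. mauritiana*, and 126177323 to 162437570 in *D. simulans* and 121468882 to 156980543 in paired-end *D. mauritiana*. Transcripts of 12 mitochondrial genes took 8.87% of counts in *D. melanogaster* library B and 9.49% in single-end *D. mauritiana* library A, against 0.729 to 3.54% in the other 10 libraries. The summed level of 3 fat body markers (*Lsp2*, *Fbp1* and *Lsp1beta*) ranged over 43.9 to 1631 RPKM (counts per kilobase of model, scaled to the sum of the table) in *D. melanogaster* and 173 to 761 RPKM in single-end *D. mauritiana*, and over 4.14 to 46.4 RPKM in *D. simulans* and 9.92 to 15.0 RPKM in paired-end *D. mauritiana*. The part of these differences in the results below was not tested, except where values without the 2 libraries of high mitochondrial share are given. In discs used whole, fewer cells that express a gene and less of its RNA per cell cannot be told apart.

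On the published *D. mauritiana* genome, *ey* and *toy* lie on chromosome 4, and *eyg* and *toe* on chromosome arm 3L. The *ey* model spans chr4:601682-618351 with 9 coding exons and 2700 nt of coding length, and the *toy* model spans chr4:852989-867937 with 9 coding exons and 1632 nt. Between them lie 234.6 kb and 10 other gene models. The *toe* model spans chr3L:11882683-11892162 with 6 coding exons and 1902 nt, and the *eyg* model spans chr3L:11923366-11927703 with 5 coding exons and 2007 nt. No other model of the re-annotation lies in the 31.2 kb between *toe* and *eyg*. The alignments list these 4 models and nearly all others on the plus strand, so relative orientation was not read from them.

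Gene models of the 4 genes were of nearly equal length in the 3 species. The *toy* model had 1632 nt in all of them, the *ey* model had 2697 nt in *D. melanogaster* and 2700 nt in *D. simulans* and *D. mauritiana*, and the *eyg* model had 2013 nt in *D. melanogaster* and 2007 nt in the other species. The *toe* model was the most variable, with 1923 nt in *D. melanogaster*, 1908 nt in *D. simulans* and 1902 nt in *D. mauritiana*. All of these differences are shorter than a read of 50 bp.

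*toy* had the highest level per kilobase of model of the 4 genes in every library, followed by *ey*. The models hold the coding sequence of 1 isoform per gene without untranslated regions, so these ranks are of coding models and not of whole transcripts. Per kilobase, *toy* exceeded *ey* in 12 of 12 libraries by 2.23- to 3.86-fold, and *ey* exceeded *toe* in 12 of 12 libraries by 1.69- to 2.94-fold. The levels of *toe* and *eyg* did not keep 1 order, since *toe* was the higher of them in 9 of 12 libraries and the ratio of *eyg* to *toe* ran between 0.390 and 1.12. Among genes with counts, group means of *toy* exceeded those of 92.5 to 95.4% of genes, those of *ey* 78.1 to 81.9%, those of *toe* 55.8 to 68.2% and those of *eyg* 53.2 to 58.7%.

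*ey*, which in the disc marks eye progenitor cells, was lower in every *D. melanogaster* library than in every single-end library of *D. mauritiana*, as were 18.6% of the 9767 genes tested in that comparison. It had 58.9, 61.0 and 57.2 RPKM in *D. melanogaster* libraries A, B and C, against 67.4, 78.7 and 68.5 RPKM in single-end *D. mauritiana*. In *D. simulans* it had 59.5, 69.1 and 68.5 RPKM, against 60.4, 58.4 and 66.8 RPKM in paired-end *D. mauritiana*, and these groups overlapped. Group means were 59.0 ± 1.91 RPKM in *D. melanogaster* and 71.5 ± 6.21 RPKM in single-end *D. mauritiana*, and 65.7 ± 5.39 RPKM in *D. simulans* and 61.9 ± 4.36 RPKM in paired-end *D. mauritiana* (SD, n = 3 each).

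*toy* stayed close to 200 RPKM in most libraries. The *D. melanogaster* libraries A, B and C had 227, 207 and 208 RPKM, against 150, 192 and 221 RPKM in single-end *D. mauritiana*. *D. simulans* had 197, 219 and 216 RPKM, against 218, 217 and 236 RPKM in paired-end *D. mauritiana*. Groups overlapped in both comparisons, and the lowest value was that of single-end *D. mauritiana* library A, 1 of the 2 libraries of high mitochondrial share. The means were 214 ± 11.2 RPKM in *D. melanogaster* and 188 ± 35.3 RPKM in single-end *D. mauritiana*, and 210 ± 11.7 RPKM in *D. simulans* and 224 ± 10.8 RPKM in paired-end *D. mauritiana* (SD, n = 3 each).

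*eyg* had the widest spread of the 4 genes among single-end *D. mauritiana* libraries, though not in the other groups. It had 26.5, 20.9 and 26.9 RPKM in *D. melanogaster* libraries A, B and C, against 14.0, 25.0 and 30.5 RPKM in single-end *D. mauritiana*. The single-end *D. mauritiana* libraries thus differed among themselves by 2.18-fold and spanned the range of all other libraries. *D. simulans* had 24.1, 21.3 and 24.4 RPKM, against 23.4, 24.6 and 29.0 RPKM in paired-end *D. mauritiana*. Means were 24.8 ± 3.36 RPKM in *D. melanogaster* and 23.2 ± 8.42 RPKM in single-end *D. mauritiana*, and 23.3 ± 1.70 RPKM in *D. simulans* and 25.7 ± 2.92 RPKM in paired-end *D. mauritiana* (SD, n = 3 each).

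*toe*, the neighbour and paralogue of *eyg*, had its highest levels in single-end *D. mauritiana*. *D. melanogaster* libraries A, B and C had 25.8, 36.0 and 31.9 RPKM, against 35.9, 45.4 and 39.0 RPKM in single-end *D. mauritiana*, and the groups touched only at *D. melanogaster* library B. *D. simulans* had 21.4, 23.5 and 23.9 RPKM, all below the 24.5, 29.7 and 32.0 RPKM of paired-end *D. mauritiana*. Of the 11121 genes tested in that comparison, 26.1% were likewise lower in every *D. simulans* library. The means were 31.2 ± 5.14 RPKM in *D. melanogaster* and 40.1 ± 4.87 RPKM in single-end *D. mauritiana*, and 22.9 ± 1.32 RPKM in *D. simulans* and 28.7 ± 3.85 RPKM in paired-end *D. mauritiana* (SD, n = 3 each).

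**Figure D1:**
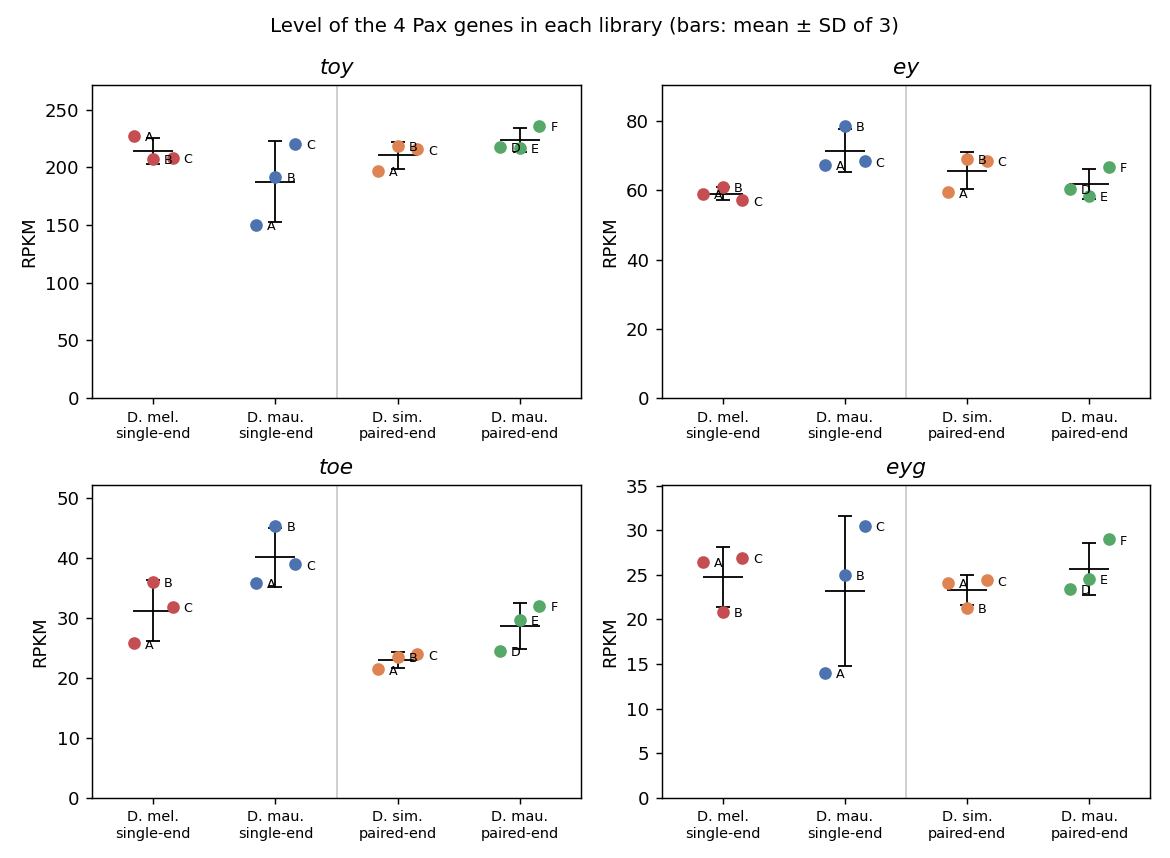
Level of *toy*, *ey*, *toe* and *eyg* (RPKM, linear axis from 0) in each library of the 4 groups. Points are libraries marked by their letter, and bars give the mean ± SD of 3 libraries. *toy* lies between 150 and 236 RPKM, and single-end *D. mauritiana* library A is lowest for *toy* and *eyg*.

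The first comparison asked whether the Pax genes differ between *D. melanogaster* and *D. mauritiana*. None of the 4 genes was called at an adjusted p below 0.05 by the quasi-likelihood test of edgeR, against 18.2% of the 9767 genes tested. None had an unadjusted p below 0.05 and DESeq2 and limma called 0 of 4 as well. The log2-fold change of *D. melanogaster* over *D. mauritiana* was -0.31 for *ey* (SE 0.14, 95% interval -0.64 to 0.02, edgeR adjusted p = 0.184) and -0.37 for *toe* (SE 0.19, -0.80 to 0.07, adjusted p = 0.232). It was 0.17 for *toy* (SE 0.15, -0.18 to 0.52, edgeR adjusted p = 0.488) and 0.08 for *eyg* (SE 0.24, -0.47 to 0.64, adjusted p = 0.853). These sizes were ordinary for the comparison: 54.2% of tested genes changed less than *toe*, 48.1% less than *ey*, 30.1% less than *toy* and 15.4% less than *eyg* in absolute log2-fold change. *eyg* had the widest interval of the 4 genes. The sign for *eyg* turned on 1 library, with a log2-fold change of -0.17 without *D. mauritiana* library A (edgeR adjusted p = 0.575).

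Between *D. simulans* and *D. mauritiana* the intervals were narrower, and again none of the 4 genes was called, against 25.1% of the 11121 genes tested. Only *toe* had an unadjusted p below 0.05 in edgeR, and DESeq2 and limma called 0 of 4. The log2-fold change of *D. simulans* over *D. mauritiana* was -0.28 for *toe* (SE 0.11, 95% interval -0.54 to -0.03, edgeR adjusted p = 0.101) and 0.12 for *ey* (SE 0.080, -0.06 to 0.31, adjusted p = 0.294). It was -0.05 for *toy* (SE 0.066, -0.20 to 0.10, edgeR adjusted p = 0.611) and -0.10 for *eyg* (SE 0.11, -0.35 to 0.15, adjusted p = 0.513). *toe* passed the threshold in 1 of the alternatives run, with a log2-fold change of -0.39 and an edgeR adjusted p of 0.0277 when *D. mauritiana* library D was left out. In this comparison 53.8% of tested genes changed less than *toe*, and 13.2% changed less than *toy*.

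The *D. mauritiana* sets of both read types share strain, sex, tissue and stage, and they show how far the same genes move without a change of species. *toe* was lower in the paired-end than in the single-end set, with a log2-fold change of -0.53 (SE 0.15, 95% interval -0.88 to -0.17, edgeR adjusted p = 0.0272). That made 1 of 4 genes called, against 45.3% of the 10467 genes tested, and 47.5% of tested genes changed less than *toe*. The call was lost without single-end library A (log2-fold change -0.56, edgeR adjusted p = 0.0503), single-end library B (-0.41, 0.104), paired-end library D (-0.40, 0.115) or paired-end library E (-0.52, 0.0816). The values of *ey* (-0.26, SE 0.12, edgeR adjusted p = 0.127), *toy* (0.22, SE 0.14, 0.222) and *eyg* (0.12, SE 0.24, 0.707) did not pass the test. Without single-end library C, *ey* passed it at -0.32 (edgeR adjusted p = 0.0403), and without single-end library A the sign for *eyg* turned to -0.11 (0.575). In absolute log2-fold change, estimates for the 4 genes were larger between the sequencing sets of 1 strain than between species. The exception was *ey* in *D. melanogaster*, at -0.31 beside -0.26. For *eyg*, the estimates between sets (0.12), in *D. melanogaster* (0.08) and in *D. simulans* (-0.10) were each smaller than their SE. These sizes were not tested against each other, and each species comparison shares its *D. mauritiana* libraries with the comparison of the sets.

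Both species comparisons use different libraries, so their difference could be tested in 1 fit over all 12. The log2-fold change in *D. melanogaster* minus that in *D. simulans* was -0.44 for *ey* (SE 0.15, 95% interval -0.77 to -0.11), with an unadjusted p below 0.05 in edgeR and an adjusted p of 0.0787. It was 0.21 for *toy* (SE 0.16, edgeR adjusted p = 0.458), 0.18 for *eyg* (SE 0.29, 0.758) and -0.09 for *toe* (SE 0.22, 0.834). None of the 4 genes was called by edgeR or DESeq2, against 14.5% of the 11287 genes tested. Leaving out single-end *D. mauritiana* library C brought *ey* to -0.52 and an edgeR adjusted p of 0.0318.

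**Figure D2:**
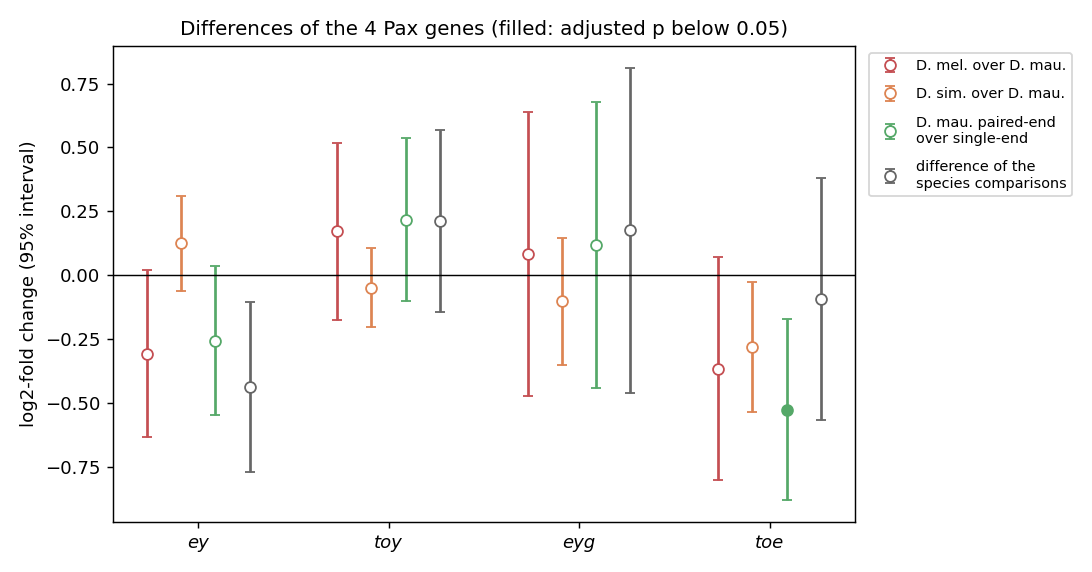
Log2-fold changes of the 4 Pax genes from edgeR with 95% intervals, for *D. melanogaster* over *D. mauritiana*, *D. simulans* over *D. mauritiana*, paired-end over single-end *D. mauritiana* and the difference of both species comparisons. Filled points passed an adjusted p of 0.05; *toe* between the *D. mauritiana* sets is the filled one.

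Ratios within a library do not depend on how libraries are scaled to each other, and they were used to compare the paralogues directly. The ratio of *ey* to *toy* per kilobase was 0.259, 0.294 and 0.274 in *D. melanogaster* libraries A, B and C, against 0.449, 0.410 and 0.310 in single-end *D. mauritiana*. In *D. simulans* it was 0.302, 0.316 and 0.318, against 0.277, 0.269 and 0.283 in paired-end *D. mauritiana*. Relative to *D. mauritiana* of the same read type, *ey* was thus lower against *toy* in every *D. melanogaster* library and higher in every *D. simulans* library. The difference of mean log2 ratios was -0.48 for *D. melanogaster* and 0.17 for *D. simulans*, each with the smallest p that 3 against 3 libraries allow (exact permutation test, two-sided, p = 0.1, adjusted p = 0.2 over 4 tests). Such a design cannot reach 0.05. How many other pairs of genes separate in this way was not computed. Of single genes, 18.6% of 9767 tested were lower in every *D. melanogaster* library than in every *D. mauritiana* library. In *D. simulans*, 26.1% of 11121 were likewise lower in every library, which is not the direction of the ratio there. The share of genes higher in every *D. simulans* library was not computed.

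The difference in *D. melanogaster* minus that in *D. simulans* was -0.66 for the log2 ratio of *ey* to *toy*. It was computed after the ratios had been seen and was not tested. Leaving out any 1 library gave -0.81 to -0.55, and leaving out both libraries of high mitochondrial share gave -0.59. The *D. mauritiana* sets themselves did not overlap in this ratio, at 0.269 to 0.283 in the paired-end and 0.310 to 0.449 in the single-end libraries. *D. melanogaster* averaged 0.276 ± 0.0175 and single-end *D. mauritiana* 0.390 ± 0.0713, while paired-end *D. mauritiana* averaged 0.277 ± 0.00688 (SD, n = 3 each). The mean of *D. melanogaster* thus lay beside that of paired-end *D. mauritiana*, and the part of the sequencing set in the difference was not tested.

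For *eyg* and *toe* the ratio did not separate the species. It was 1.03, 0.580 and 0.845 in *D. melanogaster* libraries A, B and C, against 0.390, 0.550 and 0.784 in single-end *D. mauritiana*, and 1.12, 0.908 and 1.02 in *D. simulans*, against 0.957, 0.829 and 0.906 in paired-end *D. mauritiana*. Groups overlapped in both comparisons. The difference of mean log2 ratios was 0.53 for *D. melanogaster* and 0.18 for *D. simulans* (exact permutation test, two-sided, p = 0.2 and adjusted p = 0.2 for each), and these differed by 0.35, which was not tested.

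**Figure D3:**
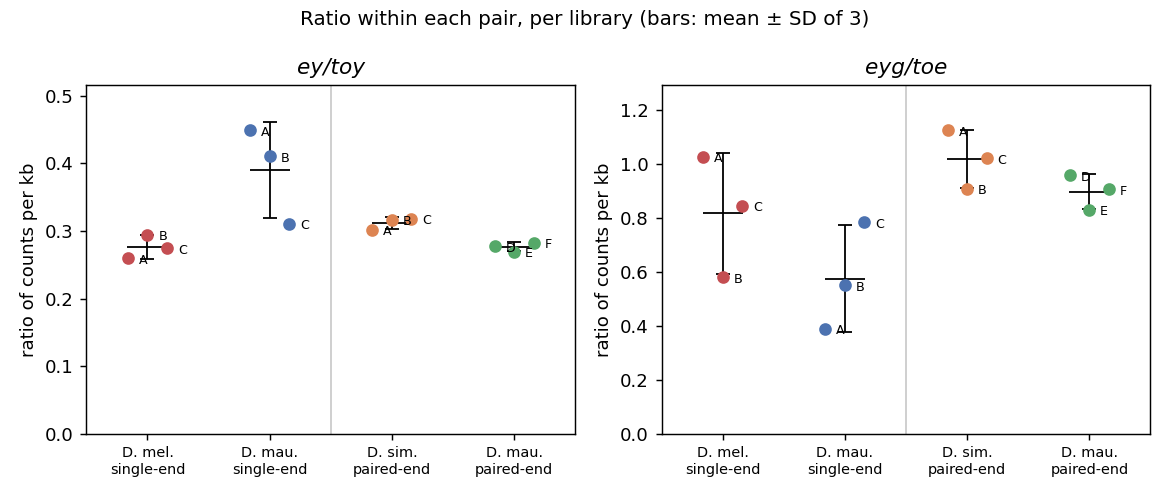
Ratio of counts per kilobase of *ey* to *toy* and of *eyg* to *toe* in each library, with the mean ± SD of 3 libraries per group. Single-end *D. mauritiana* lies above the other groups for *ey*/*toy* in libraries A and B, at 0.449 and 0.410, and *eyg*/*toe* overlaps between the groups of each comparison.

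The spread of *eyg* among the single-end libraries went along with other features of the libraries. *eyg* was lowest within its group in *D. melanogaster* library B and in single-end *D. mauritiana* library A, the libraries with 8.87% and 9.49% of mitochondrial counts. The progenitor factors *hth*, *exd*, *tsh* and *tio*, which act with *ey* in undifferentiated cells ahead of the furrow, were also lowest there. Their summed level was 337, 231 and 329 RPKM in *D. melanogaster* libraries A, B and C, against 179, 256 and 344 RPKM in single-end *D. mauritiana*. In the paired-end libraries the sum was 392 to 423 RPKM in *D. simulans* and 424 to 445 RPKM in *D. mauritiana*, without higher *eyg*. The low sums were not particular to progenitor factors. Antennal markers were also lowest in *D. melanogaster* B (84.0 RPKM) and single-end *D. mauritiana* A (83.8 RPKM). So were the sums of fat body markers, retinal determination genes and Notch axis genes. Photoreceptor, glial, hemocyte, muscle, brain and other Pax genes were not lowest in both. Without both libraries of high mitochondrial share, the log2-fold change of *eyg* in *D. melanogaster* over *D. mauritiana* was -0.08 (SE 0.15, edgeR adjusted p = 0.762).

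**Figure D4:**
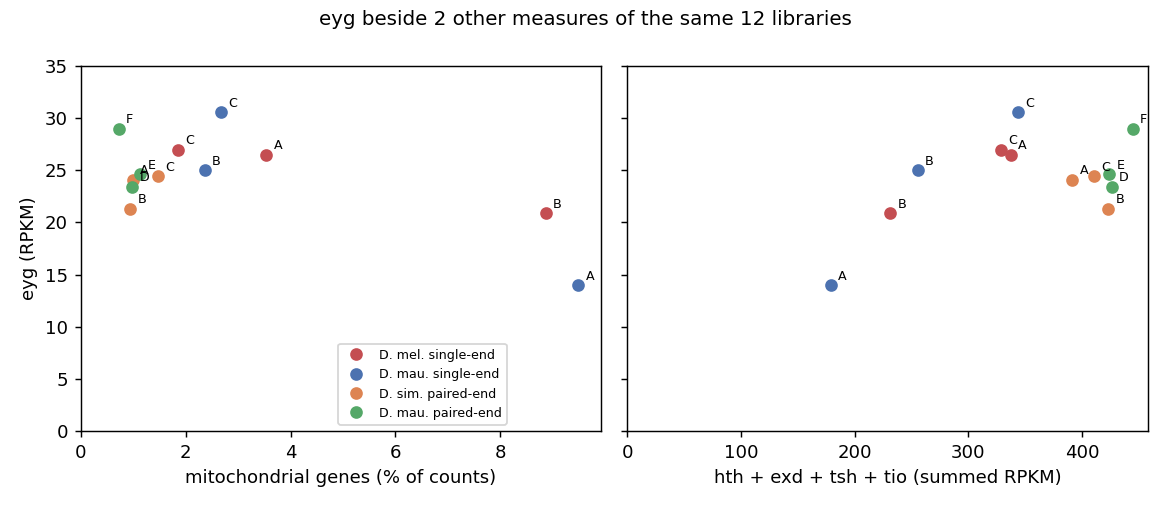
*eyg* (RPKM) in the 12 libraries against the share of counts in mitochondrial genes (left) and against the summed level of *hth*, *exd*, *tsh* and *tio* (right). Letters name libraries; *D. melanogaster* B and single-end *D. mauritiana* A stand apart at 8.87% and 9.49% with 20.9 and 14.0 RPKM of *eyg*.

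Calls among the other genes of the pathway stand beside 18.2% of all genes called in *D. melanogaster* over *D. mauritiana* and 25.1% in *D. simulans* over *D. mauritiana*, a background at which lists this short would hold about 1 call or none, so nothing is read from their low counts. Of the retinal determination genes that *ey* and *toy* activate (*so*, *eya*, *Optix*, *dac* and *ato*), edgeR called 0 of 5 in *D. melanogaster* over *D. mauritiana*, with log2-fold changes of -0.03 to 0.49 and a median of 0.12, beside a median of 0.01 over all genes tested. It called 0 of 5 in *D. simulans* over *D. mauritiana*, with values of -0.03 to 0.30 and a median of -0.00, beside 0.00 over all genes. Unadjusted p-values below 0.05 were found for 0 of 5 in either comparison, and DESeq2 and limma called 0 of 5. Of the progenitor factors, 0 of 4 were called in either comparison by edgeR, DESeq2 or limma, with medians of 0.17 and -0.06 and with 1 of 4 and 0 of 4 at an unadjusted p below 0.05. Of the Notch axis (*N*, *Ser*, *fng*, *upd1*, *upd2* and *upd3*), 0 of 5 tested genes were called in *D. melanogaster* over *D. mauritiana* by edgeR, DESeq2 or limma, with 0 of 5 at an unadjusted p below 0.05. In *D. simulans*, 1 of 6 was lower: *upd1*, a ligand of the JAK/STAT pathway that acts downstream of *eyg* in disc growth, had 1.98, 2.05 and 2.01 RPKM, against 3.53, 3.12 and 3.34 RPKM in *D. mauritiana* (log2-fold change -0.69, SE 0.16, edgeR adjusted p = 0.0206). The call for *upd1* was lost without *D. mauritiana* library D (edgeR adjusted p = 0.0876) or without *D. simulans* library B (0.0565) or C (0.0799).

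The other Pax genes of the fly, which act in segmentation, muscle and sense organs, gave 1 call in each comparison. Of all genes tested, 18.2% were called in *D. melanogaster* and 25.1% in *D. simulans*, so nothing is read from 1 call in lists this short. Unadjusted p-values below 0.05 in edgeR were found for 2 of 4 and 2 of 6 of these Pax genes. The summed level of *sv*, *Poxm*, *Poxn*, *prd*, *gsb* and *gsb-n* was 33.5 to 43.8 RPKM in *D. melanogaster* and 26.9 to 36.5 RPKM in single-end *D. mauritiana*, and 31.1 to 33.3 RPKM in *D. simulans* and 36.9 to 39.0 RPKM in paired-end *D. mauritiana*. The segment polarity gene *gooseberry* (*gsb*) was higher in *D. melanogaster*, at 18.0, 25.8 and 20.3 RPKM, against 10.1, 12.0 and 13.3 RPKM in *D. mauritiana* (log2-fold change 0.84, SE 0.21, edgeR adjusted p = 0.0308), and was the only call among the 4 genes of the list that were tested. That call was lost without *D. melanogaster* library C (edgeR adjusted p = 0.0873), without *D. mauritiana* library A (0.0878) or B (0.0938), and without both libraries of high mitochondrial share (0.0883). Its neighbour *gsb-n* was lower in *D. simulans*, at 7.78, 7.09 and 7.06 RPKM, against 10.9, 10.1 and 10.5 RPKM in *D. mauritiana* (log2-fold change -0.48, SE 0.11, edgeR adjusted p = 0.0192), as 1 call among 6 genes tested. It was lost without *D. simulans* library B (edgeR adjusted p = 0.0560) or C (0.0809) or without *D. mauritiana* library D (0.0861).

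Marker lists of the other cells in the disc and of attached tissue changed unevenly. Their calls stand beside 18.2% of all genes called in *D. melanogaster* and 25.1% in *D. simulans*, and no list was tested against those shares. Photoreceptor markers gave 0 of 6 calls in either comparison in edgeR, with 0 of 6 and 1 of 6 at an unadjusted p below 0.05 and 1 of 6 called by DESeq2 in *D. simulans*. Antennal, hemocyte and fat body markers gave 0 of 3 calls each in both comparisons in edgeR, DESeq2 and limma, with 1 of 3 antennal markers at an unadjusted p below 0.05 in *D. melanogaster* and no other. Brain markers were lower in *D. melanogaster* for 3 of 5 genes, among them *brp* (log2-fold change -1.52, edgeR adjusted p = 0.0185) and *nSyb* (-0.79, 0.0274), where limma called 1 of 5 and gave *brp* -1.04 (limma adjusted p = 0.0899), and 0 of 5 were called by edgeR in *D. simulans*, where DESeq2 called 1 and 0 had an unadjusted p below 0.05. Of the glial markers, edgeR, DESeq2 and limma each called 2 of 3 in *D. melanogaster* and 1 of 3 in *D. simulans*. The glial determinant *gcm* was lower in *D. melanogaster* (-2.65, edgeR adjusted p = 0.0154) and in *D. simulans* (-2.99, 0.0178), while the glial receptor gene *moody* was higher in *D. melanogaster* (0.68, 0.0196). The glial marker *repo* was called in neither (-0.12, edgeR adjusted p = 0.648, and -0.10, 0.546), nor was *moody* in *D. simulans* (0.26, 0.193). Of the muscle markers, *Mhc* was higher in *D. simulans* (1.66, edgeR adjusted p = 0.00463, but 0.0879 with all 12 libraries in 1 fit), and 0 of 3 were called in *D. melanogaster* by any of the 3 tools, with 1 of 3 at an unadjusted p below 0.05. The call for *gcm* was lost without *D. melanogaster* library C (edgeR adjusted p = 0.0506) and, in the other comparison, without *D. simulans* library A (0.0577). Those for *brp*, *nSyb* and *moody* were lost without *D. melanogaster* library A (edgeR adjusted p = 0.0654, 0.118 and 0.0689) or C (0.0784, 0.126 and 0.109), and those for *nSyb* and *moody* also without *D. mauritiana* library A (0.0523 and 0.0648) or B (0.0924 and 0.0711). *toy* and *ey* are also expressed in parts of the larval brain, and the part of attached brain in their values was not tested.

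On chromosome 4, where *ey* and *toy* lie, the median log2-fold change of the 75 other genes tested was -0.25 in *D. melanogaster* over *D. mauritiana*, beside 0.01 over all genes tested, with 3 higher and 10 lower, where 18.2% of all genes were called. It was -0.05 in *D. simulans* over *D. mauritiana*, beside 0.00 over all genes tested, with 6 higher and 7 lower, where 25.1% of all genes were called. Between paired-end and single-end *D. mauritiana* the median was 0.39, with 30 higher and 11 lower, beside -0.04 over all genes tested, of which 45.3% were called. The values of *ey* (-0.31) and *toy* (0.17) in *D. melanogaster* lie on either side of the first of these medians.

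Patterns over the 12 libraries were compared by the root-mean-square difference of centred log2 CPM (counts scaled to library size) among 8922 genes. The pair of members most alike was *toy* and *eyg*, at 0.170, and the least alike was *eyg* and *toe*, at 0.429, beside medians over all genes of 0.43 to 0.50. *ey* and *toy* differed by 0.231, and *toy* ranked 1241 among the genes closest to *ey*. The genes closest to each member were *mdlc*, *Smyd3* and CG8578 for *ey* (0.079 to 0.082), CG7369, CG1647 and CG10321 for *toy* (0.058 to 0.060), CG11593, CG2608 and CG44247 for *eyg* (0.110 to 0.125) and *Tfb1*, *Gnptab* and CG17230 for *toe* (0.108 to 0.135).

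The mapping reference mattered little for the Pax genes and more for some of their partners. With counts on the direct re-annotation, the log2-fold changes in *D. melanogaster* over *D. mauritiana* were -0.32 for *ey*, 0.16 for *toy*, 0.04 for *eyg* and -0.37 for *toe*, and with the published annotations they were -0.27, 0.21, 0.01 and -0.34 in the same order. In *D. simulans* over *D. mauritiana* the direct re-annotation gave 0.13 for *ey*, -0.05 for *toy*, -0.13 for *eyg* and -0.27 for *toe*, and the published annotations gave -0.06 for *toy*, -0.16 for *eyg* and -0.26 for *toe*. *ey* is not listed in the table of the published annotations with *D. simulans*. Counts of *eyg* in the reciprocal table differed by -7.46 to -3.98% from those in the published table with *D. simulans*, at model lengths that differed by 3 nt. In the table with *D. melanogaster*, the species shifted in opposite directions. There *eyg* counts differed by -7.13 to -4.74% in *D. mauritiana* and by 1.80 to 2.54% in *D. melanogaster*. How reads that fit paralogues equally well were assigned is not given in the sources used here.

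By contrast, *dac*, *Optix* and *hth*, picked after their values were seen, changed with the reference. *dac*, which encodes a nuclear cofactor of the retinal determination network, had a model of 3246 nt in *D. melanogaster* and 1878 nt in *D. mauritiana* in the direct re-annotation and a log2-fold change of 1.55 (edgeR adjusted p = 0.00981), and the published annotations gave 1.57 (0.00937). In the reciprocal re-annotation its models had 1887 and 1878 nt and the log2-fold change was 0.49 (edgeR adjusted p = 0.421). The homeobox gene *Optix* had 1479 nt in *D. melanogaster* and 858 nt in *D. mauritiana* and a log2-fold change of 1.51 (edgeR adjusted p = 0.000958) in the direct re-annotation, against 1096 and 1099 nt and 0.12 (0.729) in the reciprocal one. The homeobox gene *hth* had 1464 nt in *D. melanogaster* and 893 nt in *D. mauritiana* and a log2-fold change of 1.27 (edgeR adjusted p = 0.0193) in the direct re-annotation, against 738 nt in both species and 0.14 (0.610) in the reciprocal one. In *D. simulans* over *D. mauritiana*, the direct re-annotation gave calls for all 3 genes, at 0.81 for *dac* (edgeR adjusted p = 0.000907), 0.39 for *Optix* (0.00602) and -1.11 for *hth* (2.32e-05), against -0.03 (0.823), -0.00 (0.973) and -0.09 (0.347) in the reciprocal one. The published annotations gave *dac* 0.80 (edgeR adjusted p = 0.00112). Model lengths in the direct re-annotation were 3237 nt for *dac*, 1103 nt for *Optix* and 738 nt for *hth* in *D. simulans*, against 1878, 858 and 893 nt in *D. mauritiana*. For *D. melanogaster* over *D. mauritiana*, the log2 ratio of the model lengths in the direct re-annotation was 0.79, 0.79 and 0.71 for *dac*, *Optix* and *hth*. Its part in each shift was not tested here. The paper lists *dac* among its genes of unequal published model length, where DESeq2 without length correction gave a significant difference between these species. There *dac* did not differ significantly with length correction, on the reciprocal models or by qPCR.

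**Figure D5:**
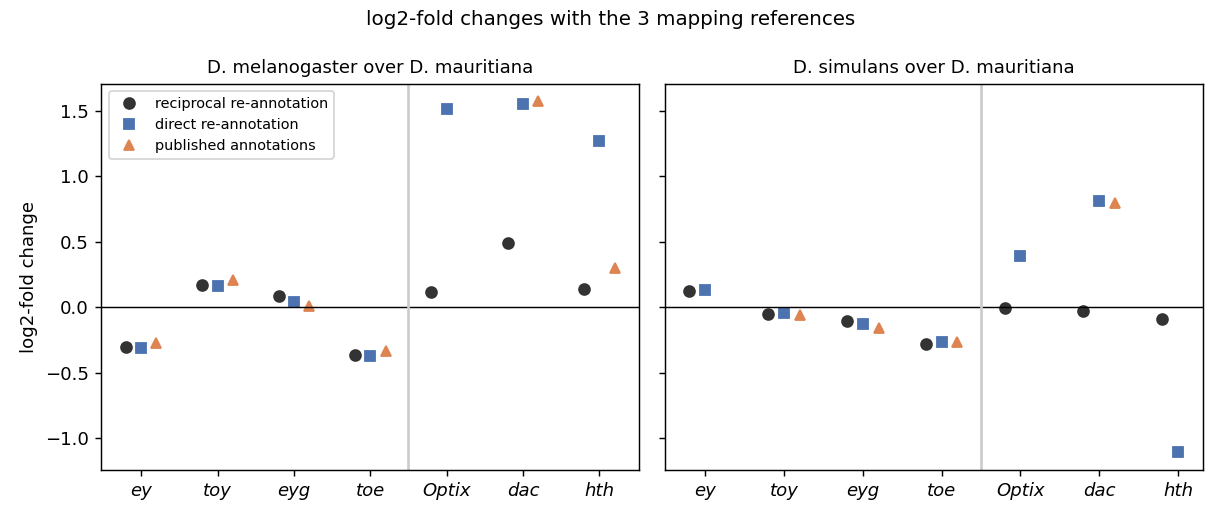
Log2-fold changes (edgeR) of the 4 Pax genes and of *Optix*, *dac* and *hth* with counts on the reciprocal re-annotation, the direct re-annotation and the published annotations, for *D. melanogaster* (left) and *D. simulans* (right) over *D. mauritiana*. The Pax genes stay within -0.37 to 0.21, while *dac* is at 1.55 on the direct re-annotation and 1.57 on the published annotations in *D. melanogaster*; a missing point means that the gene is not in that table or was not tested.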

How the data were processed

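The authors dissected eye-antennal discs, prepared TruSeq libraries, split the 100 bp paired-end reads into 50 bp reads, aligned them by Bowtie2 to each species' own set of coding models, and tallied hits per model using SAMtools 0.1.19. The deposited values are raw counts per gene model, with the model length of each species. Use of strand is not given in the sources used here. Groups came from species, strain and read type in the labels.

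Counts of the reciprocal re-annotation were tested with the quasi-likelihood test of edgeR 4.0.16 (R 4.3.3), with TMM scaling, filterByExpr and Benjamini-Hochberg adjustment over all genes tested, at a threshold of 0.05. Intervals use the test's t quantile. RPKM values used the sum of the table and the model length. DESeq2 1.42.0 with its prior, limma 3.58.1 on log2(RPKM + 1), RLE scaling, other filters, a length offset, the other annotations, 1 fit of all libraries and leaving out each library were the alternatives. Ratios were tested with scipy exact permutation tests. Leaving out both libraries with over 5% mitochondrial counts, and the difference between both ratio differences, a value with no test, were added after the values had been seen. The edgeR script was tested on simulated data. List genes were named if called in a species comparison with at least 100 counts per library on average, up to 4 a list, and the 3 genes nearest in pattern were named for each member. *repo* was added beside the called glial genes. The members and lists were chosen with earlier results of these data known. Symbols were paired with 13065 of 13331 identifiers, and *Dl* and *chp* of the lists were not matched. Positions are those of the alignments to the published *D. mauritiana* genome.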

Additional observations from a re-analysis of the deposited data

Results flagged for a closer look

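The ratio of *ey* to *toy* per kilobase moved in opposite directions in the species comparisons, with a log2 difference of -0.66 between them: every *D. melanogaster* library lay below every single-end *D. mauritiana* library, and every *D. simulans* library lay above every paired-end *D. mauritiana* library. The difference was not tested, and the single-end *D. mauritiana* libraries (0.310 to 0.449) also lie above the paired-end ones (0.269 to 0.283) of the same strain. The share of other gene pairs that separate likewise was not computed.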

How the results depend on the processing

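Of 239 log2-fold changes of the 4 genes under alternatives, 225 kept direction and side of the threshold. In the main fits only *toe* between the *D. mauritiana* sets was called, so staying uncalled says little about stability. For those sets, leaving out the libraries of high mitochondrial share is the same fit as leaving out single-end library A, and both are counted. The ratio tests cannot pass the threshold with 3 libraries a group, so their alternatives say nothing about stability. The exceptions were *eyg* between *D. melanogaster* and *D. mauritiana* (-0.17 to 0.27 on leaving out a library, -0.076 without both libraries of high mitochondrial share), *eyg* between the *D. mauritiana* sets (-0.11 to 0.32, and -0.11), *eyg* and *toe* in the difference of the comparisons (-0.072 to 0.37, and -0.23 to 0.031), *toe* in *D. simulans* (-0.39 to -0.19), *ey* (-0.32 to -0.16) and *toe* (-0.62 to -0.40, and -0.56 without the library of high mitochondrial share) between the *D. mauritiana* sets, and *ey* in the difference (-0.53 to -0.38). The RPKM levels stayed within 1 SD under TMM sizes in 16 of 16 cases.

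On leaving out a library, called genes numbered 849 to 1913 for *D. melanogaster* (main count 1775; 849 without its library C, 985 without A, 1044 without *D. mauritiana* B), 1633 to 2673 for *D. simulans* (2790; 1736 without its library C, 1633 without *D. mauritiana* D) and 292 to 6077 for the *D. mauritiana* sets (4743; 534 without paired-end E, 1225 without D, 292 without single-end B). With all 12 libraries in 1 fit there were 3172 and 1752, and 3047 between the *D. mauritiana* sets without the library of high mitochondrial share. The cause of these changes was not tested, and neither was the part of the smaller number of libraries.

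*dac* in *D. simulans* was 0.80 on the published and 0.81 on the direct annotation, and *Optix* 0.39 on the direct one, all 3 of them called, and 0.0053 with all libraries in 1 fit. On leaving out a library, *hth* ran from -0.0023 to 0.23 and *Optix* from -0.049 to 0.25 in *D. melanogaster*, and *gsb* from -0.16 to 0.093, *Optix* from -0.045 to 0.061 and *dac* from -0.090 to 0.060 in *D. simulans*.

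With the replicate letter as a block, the test of *D. melanogaster* over *D. mauritiana* called 1478 genes, and *ey* was at -0.31, *toy* at 0.18, *eyg* at 0.13 and *toe* at -0.38. No call of these 4 changed, while *moody* and *nSyb* lost theirs. Libraries of the same letter correlated at -0.24, 0.20 and 0.16 in their deviations, so the letters were not taken to pair samples. The published annotations give no *ey*/*toy* ratio for *D. simulans*, since *ey* is not in that table.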
